A study of Mus musculus with 10 samples.

Results

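Penk, the gene for proenkephalin, was described across 10 RNA sequencing libraries of colon regulatory T cells (Tregs), a CD4 lineage defined by the factor Foxp3 that dampens immunity. It is 1 gene of the 54532 in the deposited count table, of which 22046 are protein coding, and was taken as the row named Penk (ENSMUSG00000045573). Penk was picked from the read counts of these same libraries because it differs between the groups, so its level in Tumor against WT is given as a description, with no test. The gene lies on the minus strand of chromosome 4 at 4133531 to 4138819 (mm10), with an exonic length of 1634 bases. There are 5 libraries labelled Tumor and 5 labelled WT, and all cells passed a sort for CD45, CD3, CD4, CD25 and GFP. Tumor cells came from colon tumours of Apc Min/+ mice that also carried Foxp3 DTR, an allele that puts a diphtheria toxin receptor under Foxp3. The mice labelled WT carried Foxp3 DTR too, with no Apc Min allele named, and the labelled tissue is colon, so Foxp3 DTR is shared by both groups and the groups differ in the Apc allele and in the tumour together. Apc Min is a truncating allele of an inhibitor of Wnt signalling, and carriers form intestinal tumours. All mice were 16 weeks old, male and C57BL/6. No toxin treatment is named in the labels, and nothing says whether the 5 samples of a group are separate animals or pools, so p-values measure only the spread between these samples, which may be technical.

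Proenkephalin is a precursor protein that enters the secretory pathway and is cut into Met-enkephalin and Leu-enkephalin, short peptides that act mainly on the delta and mu opioid receptors. Prohormone convertases, Pcsk1 and Pcsk2, cut the precursor at paired basic residues, carboxypeptidase E (Cpe) trims the ends, and peptidases on cell surfaces degrade the released peptides. Neurons of the gut wall use enkephalins as transmitters that slow motility and secretion, and Penk transcripts are also known from fibroblasts and from activated and regulatory T cells.

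The libraries differed in more than the label. Tumor libraries held 3054435 to 7747699 counts and WT libraries 1676229 to 8412887. The summed level of 14 T cell genes (Cd3d, Cd3e, Cd3g, Cd2, Lck, Cd4 and others, termed pan-T here) was 4329 to 8415 CPM (reads scaled to a common library size by TMM) in Tumor and 223 to 1526 CPM in WT. WT replicates 1 and 2 held 35766 and 40909 CPM of 14 epithelial genes, against 152 to 207 CPM in WT replicates 3 to 5 and 57.6 to 5142 CPM in Tumor. WT replicates 3, 4 and 5 had 9.92%, 22.3% and 26.5% of their reads on Gm10800, a gene model of repeat sequence, and the other 7 libraries 0.844% to 5.77%. WT replicate 3 also held 2873 CPM of B and plasma cell genes, the other libraries 78.9 to 488 CPM. Over all 21414 genes tested the median log2 fold change (Tumor over WT) was -0.20, and it became -3.71 when the libraries were scaled to the pan-T genes instead of by TMM. Medians of lists and single genes that turn between the scales are given on both. In bulk libraries fewer cells of a type and less RNA per cell cannot be told apart.

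Penk reads numbered 5250, 4436, 13796, 3368 and 7005 in Tumor replicates 1 to 5. In WT replicates 1 to 5 they numbered 2, 92, 2, 62 and 2. Every Tumor library was above every WT library, and 154 of the 160 WT reads lay in WT replicates 2 and 4. Scaled for library size, the Tumor level was 1475, 1838, 2239, 598 and 1607 CPM, a mean of 1552 ± 607 CPM (SD, n = 5). The WT level was 0.468, 12.7, 0.939, 22.6 and 0.907 CPM, a mean of 7.52 ± 9.88 CPM (SD, n = 5). Tumor replicate 4 was the lowest of its group and still 26.5 times the highest WT library, WT replicate 4. The highest Tumor library stood 3.75 times above the lowest, whereas the WT libraries spanned 48.2 times.

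The counting error of 2 reads is wide. An exact 95% Poisson interval for 2 reads runs from 0.242 to 7.22 reads, that for the 92 reads of WT replicate 2 from 74.2 to 113 reads, and that for the 62 of WT replicate 4 from 47.5 to 79.5 reads. These intervals cover counting error only, because amplified reads without molecular identifiers are not independent molecules. As a measure of reads that fall on genes not expected in T cells, 1464 olfactory and vomeronasal receptor genes were summed. At their level per kb, a gene of the Penk length would collect 16.0, 14.4, 14.6, 10.3 and 12.4 reads in WT replicates 1 to 5 and 6.39 to 14.4 reads in Tumor. Penk was under that level in WT replicates 1, 3 and 5 and above it in WT replicates 2 and 4, with intervals that did not reach it. So Penk was above the pooled level of these receptor genes in 2 of the 5 WT libraries. The spread between single receptor genes was not measured, so single genes of that set may reach such counts too.

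**Figure D1:**
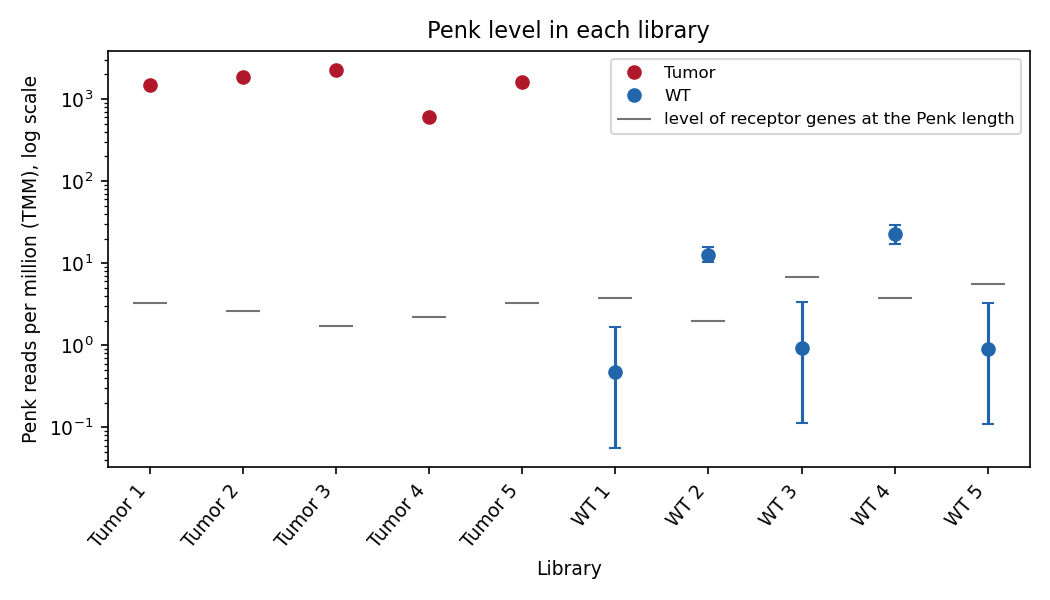
Penk level by library in TMM-scaled CPM (log axis), with exact 95% Poisson intervals as bars (smaller than the points in Tumor) and, as a grey line, the level of olfactory and vomeronasal receptor genes over the same length. The 5 Tumor libraries sit between 598 and 2239 CPM, and only WT replicates 2 and 4 of the WT libraries lie above their grey line.

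The fitted log2 fold change of Penk was 7.67 ± 1.21 (SE, edgeR), the highest of the 21414 genes tested. This value chose the gene and is not tested. It was 7.51 without the 2 WT libraries rich in epithelial genes and 7.75 without the 3 rich in repeat reads. Scaled to the pan-T genes, which are themselves higher in Tumor, it was 4.98 ± 1.10 (SE), and the lowest Tumor library then stood 5.16 times above the highest WT library. Of all genes tested, 1.59% were called in either direction (edgeR adjusted p below 0.05 over all genes), 1.37% higher and 0.219% lower, and 4.38% had every Tumor library above every WT library. Nothing is read from these shares for Penk itself, and they serve as the background for the gene lists that follow.

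Compared per length, in CPM per kb of exon (RPKM), Penk was among the most abundant protein coding transcripts of the Tumor libraries. Its levels were 903, 1125, 1370, 366 and 984 RPKM in Tumor replicates 1 to 5, which placed it 40, 40, 32, 102 and 36 in rank among 22046 protein coding genes. In WT replicates 1 to 5 the levels were 0.286, 7.78, 0.575, 13.8 and 0.555 RPKM and the ranks 20259, 5051, 15815, 1314 and 20168. Penk thus took 0.0581% to 0.178% of all reads of a Tumor library (median 0.145%).

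By its median Tumor level of 984 RPKM Penk was number 40 of the protein coding genes. Just above it were Tnfrsf4 (OX40, a costimulatory receptor of the TNF receptor family) at a median of 1044 RPKM, Ndufa2, a respiratory chain subunit, at 1025 RPKM and S100a6, a calcium binding protein, at 1001 RPKM. Just below were mt-Co1, a mitochondrially encoded cytochrome oxidase subunit, at 913 RPKM, Areg, the growth factor amphiregulin, at 911 RPKM and Cox6a1 at 908 RPKM. The Tumor ranges of these 7 genes overlap (366 to 1370 RPKM for Penk, 383 to 1500 for Tnfrsf4, 556 to 1302 for Areg), so their order does not exceed the spread between libraries. The WT median of Penk was 0.575 RPKM, against 50.7 for Tnfrsf4, 68.6 for Areg, 182 for S100a6 and 491 for Ndufa2. Penk was picked for its difference between the groups. A WT level under that of genes with a like Tumor level follows from that choice. Genes that define the sorted cells stood lower per length in Tumor, with medians of 712 RPKM for Ctla4 (rank 62), 541 RPKM for Cd3d (rank 86), 101 RPKM for Il2ra (rank 463) and 22.3 RPKM for Foxp3 (rank 1827).

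The spread of Penk over the Tumor libraries was larger than that of most genes of like level. Its coefficient of variation was 39.1%, and 165 of 201 protein coding genes with a Tumor mean within 3-fold of that of Penk (82.1%) had a lower one, with a median of 29.1%. With pan-T scaling the coefficient of Penk was 38.4%. Most of the spread lay in Tumor replicate 4, at 598 CPM, with the other 4 libraries between 1475 and 2239 CPM.

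Set against Foxp3 in the same library, the Tumor values drew together. Foxp3 levels were 20.1, 26.9, 37.0, 9.26 and 22.3 RPKM in Tumor replicates 1 to 5, with the lowest in the library where Penk was lowest and the highest where Penk was highest. The ratio of Penk to Foxp3 per kb was 45.0, 41.8, 37.0, 39.5 and 44.2, a mean of 41.5 ± 3.29 (SD, n = 5) with a coefficient of variation of 7.94%. The exact binomial 95% interval of the ratio was 34.6 to 39.6 in Tumor replicate 3, 39.9 to 50.8 in replicate 1 and 39.9 to 49.1 in replicate 5. The interval of replicate 3 lay just under those of replicates 1 and 5, and all other pairs of Tumor intervals overlapped. These intervals take reads as independent molecules, so they cannot place that narrow gap beyond counting error. In WT replicates 1 to 5 the ratio was 0.122, 8.02, 0.349, 1.39 and 0.0939, so the WT libraries scattered and the lowest Tumor ratio was 4.61 times the highest WT ratio. The WT ratios rest on little Foxp3. Its levels were 2.35, 0.970, 1.65, 9.94 and 5.91 RPKM in WT replicates 1 to 5, against 2.29, 1.22, 4.19, 2.29 and 3.44 RPKM for the receptor genes there, so that WT replicates 2 and 3 were under that level and WT replicate 1 near it.

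The likeness of Penk and Foxp3 over the Tumor libraries was measured as a distance, the root mean square difference of log2 CPM after centring each gene on its mean. Among the 12164 protein coding genes that averaged 10 CPM or more, Foxp3 was number 2 in nearness to Penk over the 5 Tumor libraries, at 0.10 log2 units, after Kcnab2, a potassium channel subunit, at 0.092. Without Tumor replicate 4, the library low in both, Foxp3 fell to place 151, and without any 1 of the other 4 Tumor libraries it was at place 6 to 15. The closeness in rank thus rests largely on Tumor replicate 4, and the distance itself was 0.11 without it. The 5 points share their library size and its scaling.

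Against the CD3 genes, which mark all T cells, Penk varied more. The mean level of Cd3d, Cd3e and Cd3g was 236 to 344 RPKM in Tumor and 9.95, 26.4, 46.1, 55.3 and 11.7 RPKM in WT replicates 1 to 5. The ratio of Penk to that mean was 3.63, 3.27, 3.98, 1.55 and 4.13 in Tumor replicates 1 to 5. It was 0.0288, 0.295, 0.0125, 0.250 and 0.0475 in WT replicates 1 to 5, and the lowest Tumor ratio was 5.26 times the highest WT ratio. Tumor replicate 4 had CD3 transcripts like those of Tumor replicate 5 (236 and 238 RPKM) but 366 against 984 RPKM of Penk. WT replicate 3 had more CD3 transcript than WT replicate 2 and 71.3 RPKM of Ctla4, a receptor that Tregs express at high level. Yet it had 2 Penk reads against 92, which is 0.939 against 12.7 CPM, since WT replicate 2 was sequenced deeper.

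**Figure D2:**
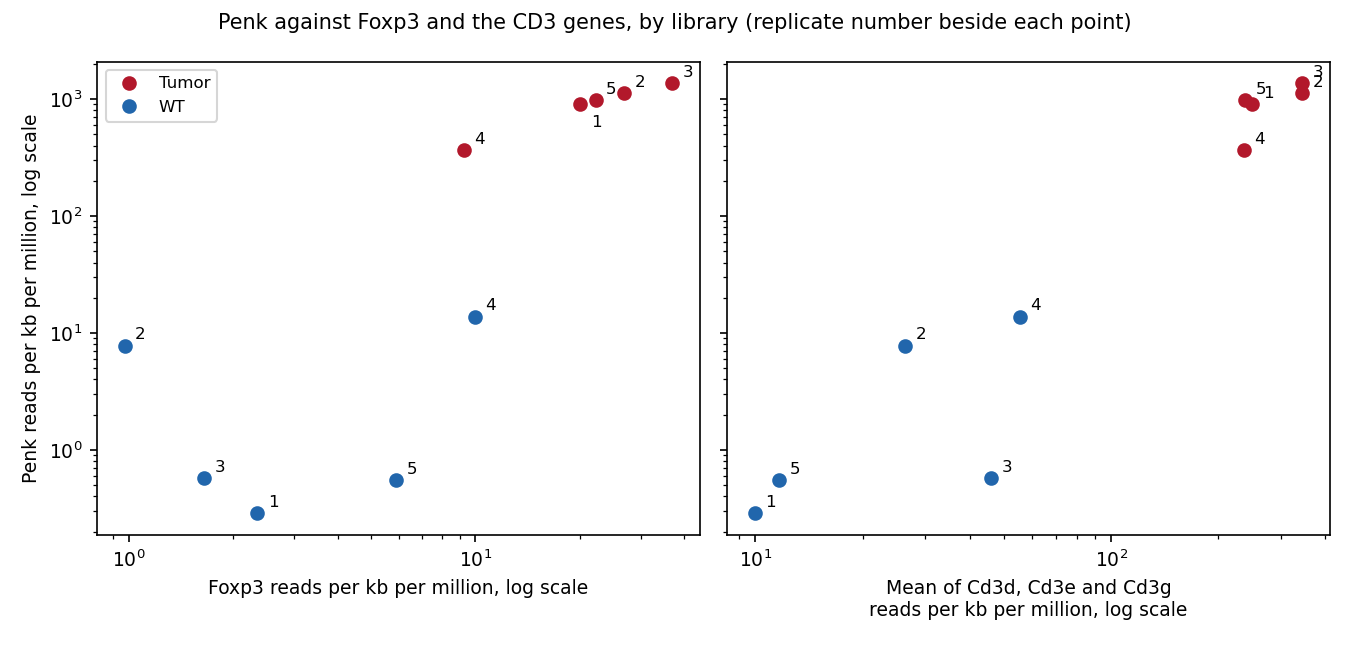
Penk level against Foxp3 (left) and against the mean of Cd3d, Cd3e and Cd3g (right), each point a library with its replicate number, all axes in RPKM on log scales. The Tumor points lie along a narrow band against Foxp3, with ratios of 37.0 to 45.0, and WT replicate 4 lies far under Tumor replicate 4 at nearly the same Foxp3 level.

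Markers of other cells known to use Penk were detected in both groups. None was called, which is the likely count for lists this short at the 1.59% share of all genes tested. The summed level of 12 enteric neuron genes was 46.8 to 106 CPM in Tumor and 62.0 to 237 CPM in WT, with 0 of the 9 tested members called. The 9 fibroblast and stromal genes summed to 60.2 to 206 CPM in Tumor and 108 to 192 CPM in WT, with 0 of 8 tested called. The pan-T sum was 4329 to 8415 CPM in Tumor and 223 to 1526 CPM in WT. Beside it the neuron and stromal sums were small in Tumor but not in every WT library. By edgeR's unadjusted p below 0.05, 1 enteric neuron gene and 0 stromal genes passed, and DESeq2 and limma voom called 0 in both lists. The part of such cells in the Penk level was not tested. Macrophage and monocyte genes did move with the groups. Their 12 genes summed to 1495, 6326, 1866, 2094 and 5620 CPM in Tumor replicates 1 to 5, and to 65.8 to 204 CPM in WT. Of the 12, 5 were called higher, against 1.37% of all genes tested (median log2 fold change 2.37, against -0.20 over all genes). With pan-T scaling 4 were called higher and 2 lower, and the median was -1.06, against -3.71 over all genes. Within Tumor, Penk was highest in replicate 3 and lowest in replicate 4, while the macrophage sum was highest in replicate 2 and lowest in replicate 1. The part of macrophage RNA in the Penk level was not tested. No gene of the neuron, stromal or macrophage lists was at 0 in all libraries of a group.

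The other opioid precursors stayed at few reads in both groups. Pomc (the precursor of beta-endorphin) had 3 to 37 reads in Tumor and 3 to 17 in WT. Pdyn (the precursor of dynorphins) had 0 to 34 reads in Tumor and 1 to 62 in WT. Pnoc (the precursor of nociceptin) had 1 to 17 reads in Tumor and 8 to 21 in WT. The groups overlap for each of the 3 genes, and none of them had enough reads to enter the test.

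Group means of the receptors on which opioid peptides act ran up to 66.7 CPM in Tumor and 30.5 CPM in WT, both for Ogfr. Of the 6 genes of the receptor list 0 were called by edgeR, against 1.59% of all genes tested, and 0 by DESeq2 or limma voom. The median log2 fold change was -0.49, and 2 genes had an unadjusted p below 0.05 by edgeR. Oprd1, the delta receptor, had 25, 0, 2, 7 and 2 reads in the Tumor libraries, by number, and 42, 47, 27, 10 and 24 in the WT libraries. Its log2 fold change was -2.25 ± 1.07 (SE), with an edgeR adjusted p of 0.306. Without Tumor replicate 1, which held most of its Tumor reads, it was -3.92 (adjusted p = 0.125). Oprm1, the mu receptor, stood at 15.7 ± 8.82 CPM in Tumor and 21.5 ± 5.64 CPM in WT (SD, n = 5 each), and its log2 fold change was -0.45 ± 0.60 (SE). Oprk1, the kappa receptor, had a log2 fold change of -0.53 ± 0.97 (SE), and Oprl1, the nociceptin receptor, one of -0.84 ± 0.997 (SE). The groups overlapped for all of these receptors. Ackr3, an atypical chemokine receptor that also binds enkephalins, stood at 21.1 ± 14.2 CPM in Tumor and 5.87 ± 3.82 CPM in WT. Its log2 fold change was 1.85 ± 0.77 (SE), with an edgeR adjusted p of 0.243, and became -1.63 with pan-T scaling. Ogfr, a nuclear-envelope receptor for Met-enkephalin, stood at 66.7 ± 22.8 CPM in Tumor and 30.5 ± 20.8 CPM in WT. Its log2 fold change of 1.12 ± 0.58 (SE), with an adjusted p of 0.354, became -2.56 with that scaling.

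Of the processing genes, Pcsk1, the first convertase of the enkephalin precursor, was the member that passed the test. In Tumor replicates 1 to 5 its level was 120, 271, 243, 103 and 36.5 CPM, compared with 33.0, 11.6, 29.1, 23.3 and 20.4 CPM in WT. Every Tumor library was above every WT library (as for 4.38% of all genes tested), though Tumor replicate 5 came near WT replicate 1. The means were 155 ± 99.1 CPM in Tumor and 23.5 ± 8.26 CPM in WT (SD, n = 5 each), and the log2 fold change was 2.72 ± 0.61 (SE, edgeR adjusted p = 0.0295). With pan-T scaling, which lowers all genes together, it was -1.10 ± 0.78 (SE). The call was lost without Tumor replicate 1, 2, 3 or 4 or WT replicate 1, at adjusted p-values of 0.0568 to 0.0951, and kept without the WT libraries rich in epithelial genes (adjusted p = 0.0154) or in repeat reads (adjusted p = 0.0138). Pcsk1 and Penk did not order the Tumor libraries alike, since Tumor replicate 5 had the lowest Pcsk1 and replicate 4 the lowest Penk.

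Altogether 1 of the 10 tested processing genes was called higher and 0 lower, against 1.37% and 0.219% of all genes tested. The median log2 fold change of the list was 0.14, and -3.47 with pan-T scaling, and 2 genes had an unadjusted p below 0.05 by edgeR. Furin, a convertase of the general secretory pathway, was at 171 ± 20.4 CPM in Tumor and 46.9 ± 24.7 CPM in WT. Its log2 fold change of 1.86 ± 0.53 (SE), with an adjusted p of 0.0847, became -1.35 with pan-T scaling. Both DESeq2 and limma voom called it higher, at adjusted p-values of 0.0180 and 0.0330, and edgeR did without WT replicate 4 (adjusted p = 0.0478). Cpe, the trimming carboxypeptidase, had 24.7 ± 18.6 CPM in Tumor and 16.9 ± 11.4 CPM in WT, and its log2 fold change was 0.55 ± 0.71 (SE). Pcsk2, the second convertase, had 4 to 34 reads in Tumor and 10 to 39 in WT. Furin, Cpe and Pcsk2 were chosen for mention after their values were seen. Per length, the Tumor medians of Pcsk1 (21.5 RPKM, rank 1904), Furin (18.1 RPKM) and Cpe (8.08 RPKM) lay far under that of Penk (984 RPKM).

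Genes of dense core granules, the vesicles in which neurons and endocrine cells store peptides, had 0 of 7 tested members called, with a median log2 fold change of -1.63 and 4 with an unadjusted p below 0.05 by edgeR. DESeq2 called 2 of them lower, Chga and Chgb, the chromogranins, and limma voom 0. The most abundant were Cadps, a factor for granule release, at 28.2 ± 22.0 CPM in Tumor and 29.0 ± 19.0 CPM in WT, and Ptprn2, a granule membrane protein, at 13.7 ± 10.5 and 29.7 ± 33.2 CPM. Chga, named like Chgb after its values were seen, had 0 to 11 reads in Tumor and 38 to 55 in WT, with every Tumor library under every WT library (as for 1.57% of all genes tested) and an edgeR adjusted p of 0.128. Genes for the peptidases that degrade enkephalins had 0 of 7 tested members called and a median log2 fold change of 0.08 (-3.51 with pan-T scaling), with none at an unadjusted p below 0.05, and DESeq2 and limma voom called 0 as well. Lnpep stood at 209 ± 77.7 CPM in Tumor and 143 ± 40.0 CPM in WT, and Npepps at 61.7 ± 19.3 and 53.4 ± 28.8 CPM (SD, n = 5 each).

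**Figure D3:**
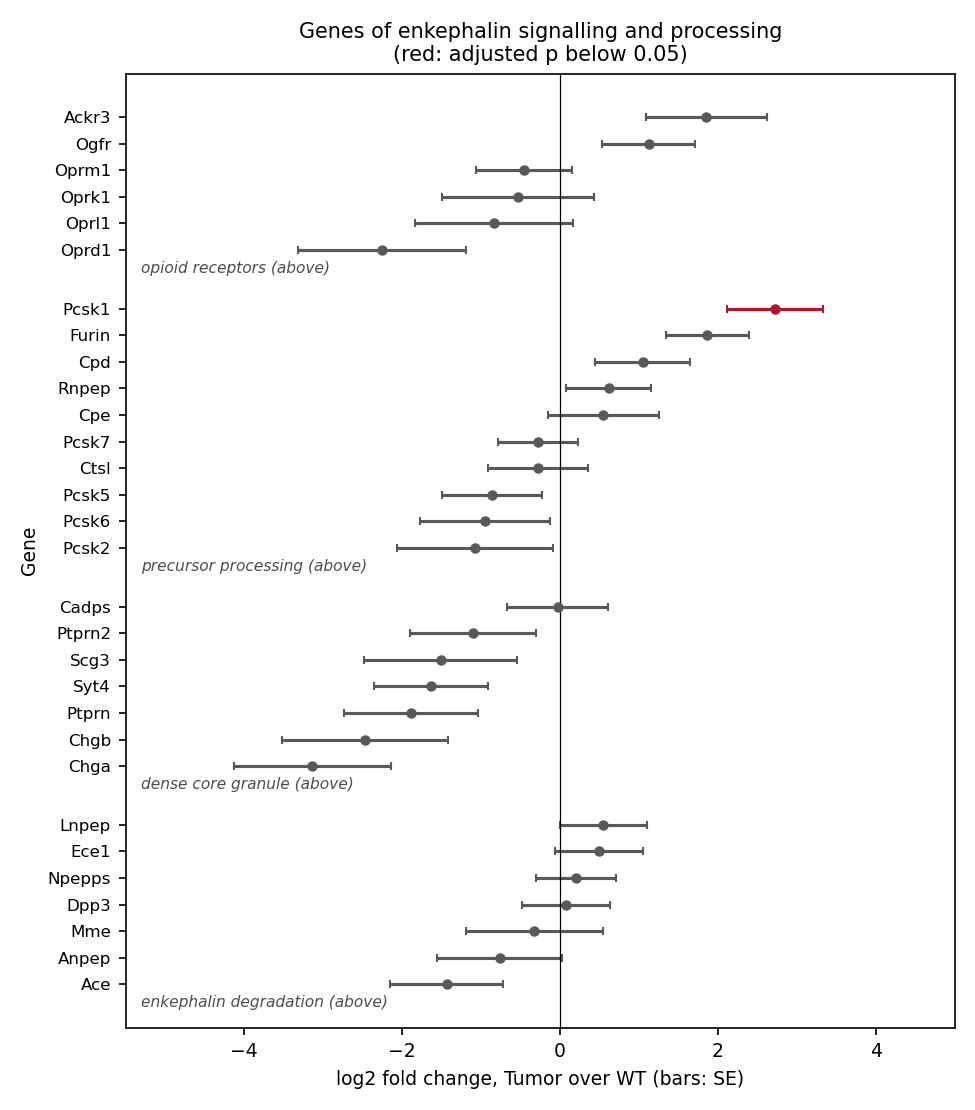
Log2 fold change (Tumor over WT, TMM scaling) of each tested gene of the receptor, processing, granule and degradation lists, with bars for the SE and red for an edgeR adjusted p below 0.05. Pcsk1 is the 1 red point, the 7 granule genes all lie under 0, and the receptors run from -2.25 to 1.85.

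Among 20 other neuropeptide precursors, 12 had too few reads to be tested and 1 of the 8 tested was called higher (median log2 fold change 0.41, and -3.30 with pan-T scaling). This was Rln3, the precursor of relaxin-3, at 20.0, 111, 125, 27.3 and 4.13 CPM in Tumor replicates 1 to 5, compared with 2.34, 0, 0.469, 0 and 1.81 CPM in WT. Every Tumor library was above every WT library (as for 4.38% of all genes tested), but Tumor replicate 5 had 18 reads and WT replicate 1 had 10. Its log2 fold change was 5.95 ± 1.11 (SE, edgeR adjusted p = 0.0121) and 1.58 ± 1.31 (SE, adjusted p = 0.244) with pan-T scaling. Without the WT libraries rich in repeat reads, which leaves 2 WT libraries, the adjusted p was 0.347. Nmb (neuromedin B), named after its values were seen, stood at 27.7 ± 7.34 CPM in Tumor and 3.40 ± 3.10 CPM in WT without passing the test (adjusted p = 0.0583, and 0.0416 without WT replicate 4). Tac1, Vip and Calca, peptides of gut neurons, had adjusted p-values of 0.694, 0.977 and 0.888. No other peptide of that list reached the Tumor mean of Rln3, 57.6 ± 56.2 CPM, and Penk was far above it at 1552 ± 607 CPM. Per length, the Tumor means were 90.8 RPKM for Rln3 and 950 RPKM for Penk.

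Transcription factors of the CREB and AP-1 kinds, which are known to bind the enhancer of Penk next to its promoter, were listed as 15 genes, all of them tested. Of these, 1 was called higher and 0 lower, against 1.37% and 0.219% of all genes tested. The median log2 fold change of the list was 0.76, and -2.84 with pan-T scaling, and 7 genes had an unadjusted p below 0.05 by edgeR. Crem, a cAMP-responsive factor with activator and repressor isoforms, stood at 497, 573, 488, 562 and 244 CPM in Tumor replicates 1 to 5, compared with 16.6, 15.5, 60.1, 124 and 24.9 CPM in WT. Every Tumor library was above every WT library, as for 4.38% of all genes tested. Tumor replicate 5, not the Penk-low replicate 4, was the low one in Tumor for Crem. Its log2 fold change was 3.29 ± 0.74 (SE, edgeR adjusted p = 0.0297), which became 0.39 ± 0.72 (SE, adjusted p = 0.595) with pan-T scaling. Leaving out Tumor replicate 1, 2, 3 or 4 or WT replicate 1 raised the adjusted p to 0.0758 to 0.104. Junb had a log2 fold change of 2.02 ± 0.74, with an adjusted p of 0.194, and Batf one of 2.23 ± 0.77, with an adjusted p of 0.161. Both are AP-1 members named after their values were seen, and with pan-T scaling they became -1.17 and -0.72. Without WT replicate 3, the WT library high in Batf, that gene was at 3.62 and passed (adjusted p = 0.0156).

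The TNF receptors of Tregs, costimulatory receptors that include Tnfrsf4, a gene next to Penk in Tumor level, were called higher in 4 of 6 tested genes (median log2 fold change 3.34, and 0.47 with pan-T scaling, against 1.37% of all genes called higher). Tnfrsf9 (4-1BB) rose from 27.9 ± 33.0 CPM in WT to 1531 ± 493 CPM in Tumor, by 5.78 ± 0.95 on the log2 scale (SE), with an edgeR adjusted p of 0.00612. It stayed called with pan-T scaling, at 2.93 ± 0.93 (adjusted p = 0.00580). Tnfrsf4 rose by 4.20 ± 0.86 on that scale (adjusted p = 0.0190) and Tnfrsf8 (CD30) by 2.77 ± 0.54 (adjusted p = 0.0155). Neither was called with pan-T scaling, where Tnfrsf8 turned to -0.87. The Tnfrsf4 call was also lost without Tumor replicate 1, 2 or 3 or WT replicate 1, and the Tnfrsf8 call without Tumor replicate 3 or WT replicate 1. Of the sort markers 3 of 7 were called higher by edgeR, 7 by DESeq2, 0 to 4 without any 1 library and 0 with pan-T scaling (median 2.63, and -0.23 with that scaling). Of the Treg core genes 6 of 11 were called higher, 9 by DESeq2, 0 to 8 without any 1 library and 0 with pan-T scaling, where 1 was lower (median 2.68 and -0.86), with Foxp3 itself at 2.48 ± 0.64 on the log2 scale (adjusted p = 0.0560, and 0.0229 without WT replicate 4) and -0.86 with pan-T scaling.

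The genes nearest to Penk over all 10 libraries, by the same distance as above, were in order Ccr8, Apoe, Tnfrsf9, Ctla2a, Pdcd1, C1qa, Cst7, C1qb, Klrg1 and Lyz2, at 1.36 to 2.01 log2 units (median of 12164 genes 4.53, highest 9.20). Known as genes of activated T cells are Tnfrsf9, the protease inhibitors Ctla2a and Cst7, Ccr8, a chemokine receptor of tissue Tregs, Pdcd1 (PD-1), an inhibitory receptor, and Klrg1, a receptor of effector Tregs. The others, Apoe, C1qa, C1qb and Lyz2, are genes of macrophages. Between 7 and 10 of these 10 genes came back among the 10 nearest when any 1 library was left out. This distance over 10 libraries is set mainly by the difference between groups. Over the 5 Tumor libraries alone the same genes took places 331 (Pdcd1) to 9646 (Lyz2) of 12164. Ctla2a was at 378, and the macrophage genes Apoe, C1qa, C1qb and Lyz2 were at 5013 to 9646.

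Ccr8 was picked as nearest by the distance over all libraries, so its likeness to Penk over them follows from that choice. Ccr8 reads in the 5 Tumor libraries were 495, 509, 1801, 649 and 332, in the order of their numbers. In the 5 WT libraries they were 0, 26, 0, 13 and 4. As for Penk, WT replicates 2 and 4 held most of the WT reads, at 3.59 and 4.73 CPM, against 1.81 CPM in WT replicate 5. Within Tumor the 2 genes parted, since Ccr8 was lowest in replicate 5, at 76.2 CPM, where Penk was at 1607 CPM. Over the 5 Tumor libraries Ccr8 took place 2475 of 12164. Apoe reads, from a macrophage lipoprotein gene, numbered 2460, 9654, 7395, 4274 and 13870 in Tumor and 36, 383, 0, 91 and 5 in WT. These reads were also highest in WT replicates 2 and 4, at 52.9 and 33.1 CPM. In Tumor, replicate 5 had the most Apoe reads. Scaled for library size replicate 2 was highest, at 4001 CPM against 3182 CPM in replicate 5, whereas Penk was highest in replicate 3. Tnfrsf9 had 236 and 148 reads in WT replicates 4 and 2 and 21 to 39 in the other WT libraries. Scaled for library size, only WT replicate 4 stood out, at 85.9 CPM. WT replicate 2, a deep library, was at 20.5 CPM and WT replicate 5 at 17.7 CPM.

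**Figure D4:**
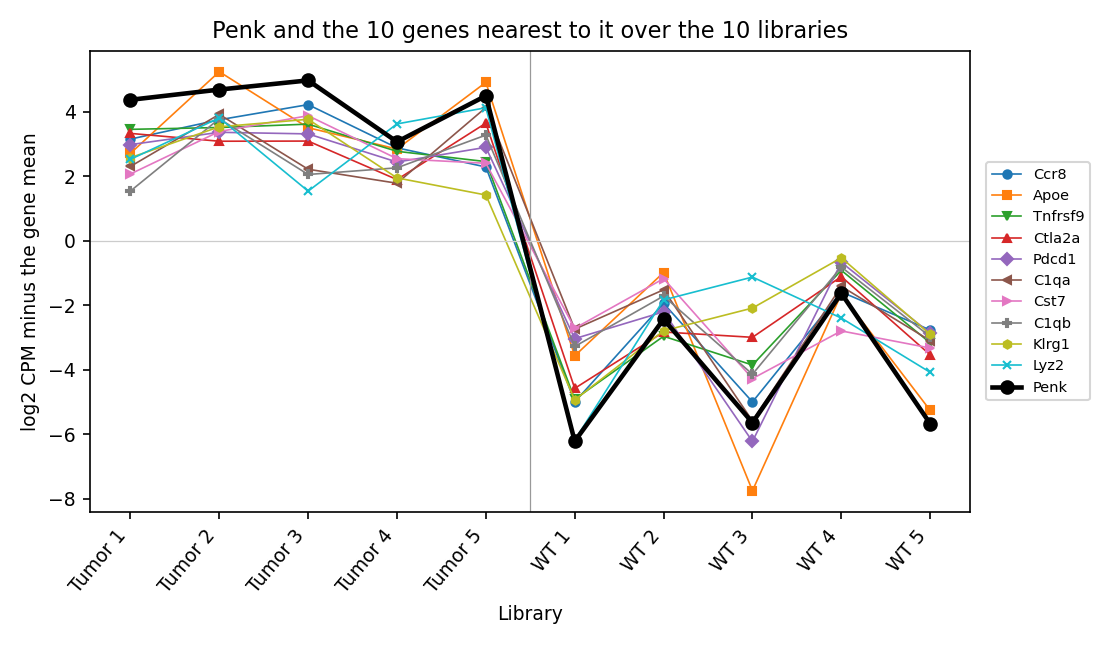
Log2 CPM of Penk (black) and of the 10 protein coding genes nearest to it, each centred on its own mean over the 10 libraries. Penk and most of the lines rise at WT replicates 2 and 4, and in Tumor the lines of Apoe, Lyz2, Ccr8 and Klrg1, among others, depart from that of Penk.

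The tested genes around Penk had log2 fold changes of -0.86 to 1.40. Penk, at 7.67, was picked for its difference and is the highest of all genes tested. Any neighbour therefore falls below it. Within 1 Mb of the gene body lie 13 other protein coding genes, of which 11 were tested. By edgeR 0 were called, against 1.59% of all genes tested, and DESeq2 and limma voom called 0. At that share 0 is the likely count for so short a list. The median log2 fold change was 0.37, and -3.19 with pan-T scaling, and 1 gene had an unadjusted p below 0.05 by edgeR. On the side of the Penk 3′ end the nearest was Sdr16c6, a short-chain dehydrogenase gene, 56.0 kb away, with a log2 fold change of 0.33 ± 1.004 (SE) and 0 to 25 reads per library. On the side of the Penk start the nearest was Impad1, a phosphatase gene, 624 kb away, at 88.2 ± 16.9 CPM in Tumor and 56.4 ± 48.2 CPM in WT, with a log2 fold change of 0.64 ± 0.59 (SE). Lyn, a Src family kinase gene and the 1 gene with an unadjusted p below 0.05, had a log2 fold change of 1.40 ± 0.55, with an adjusted p of 0.216. With pan-T scaling, which moves the median of all genes to -3.71, all 11 were called lower, with Sdr16c6 at -3.19 and Impad1 at -3.18.

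**Figure D5:**
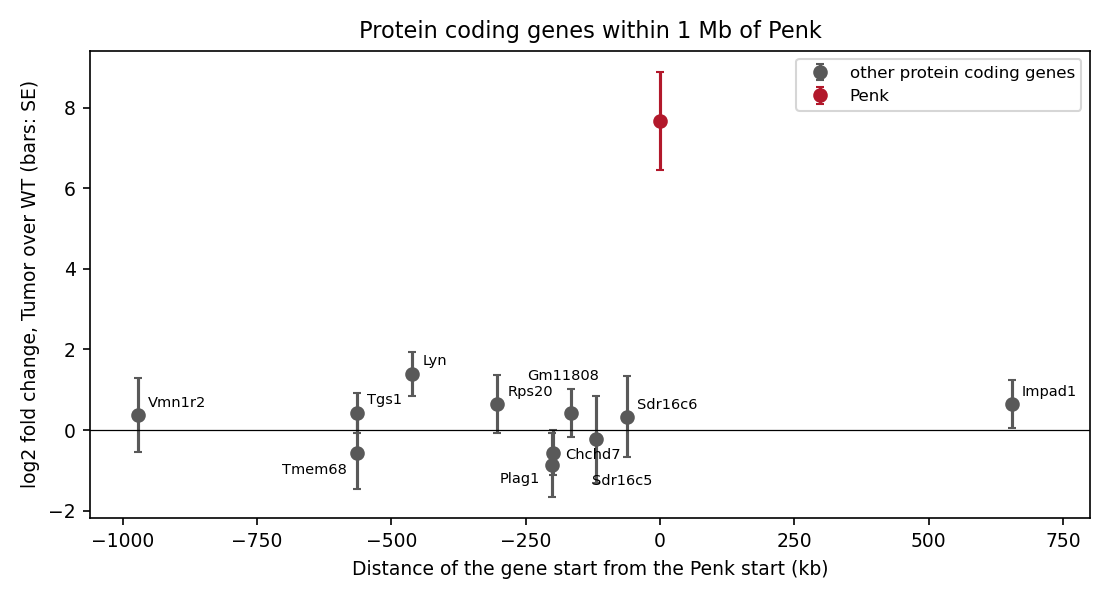
Log2 fold change (Tumor over WT, bars for the SE, TMM scaling) of Penk and the 11 tested protein coding genes within 1 Mb, against the distance of each gene start from the Penk start in kb, with positive values upstream of Penk. Penk stands at 7.67, the difference for which it was picked, and the neighbours lie between -0.86 and 1.40.

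One gene of the table overlaps Penk. The antisense transcript A830012C17Rik (chromosome 4, 4138321 to 4188703, plus strand) shares 233 exonic bases with it, 14.3% of the Penk exonic length. Without knowing whether strand was counted, reads in that stretch cannot be assigned to either gene. The antisense gene had 0, 37, 19, 0 and 12 reads in the Tumor libraries in the order of their numbers and 11, 0, 10, 0 and 2 in WT, against 3368 to 13796 Penk reads in Tumor.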

How the data were processed

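Smart-seq2 libraries of sorted Tregs, 5 Tumor and 5 WT, grouped by the sample titles, were analysed from the raw read counts per gene that the authors deposited, not normalized. Per the submitters' processing notes, HISAT2 2.0.5 and featureCounts 1.5.0-p3 were used on mm10. Annotation release, strand setting and handling of multimapping reads are not given in the sources used here. The 10 single-sample files held the same counts as the series table. Penk has the same coordinates and exonic length in GENCODE M21. Full-length reads favour long genes, so the ranks of Penk and its main ratios to Foxp3 and the CD3 genes are per kb. List sums, the most abundant members of a list and the genes of like level were taken by CPM, which is not corrected for length.

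In R 4.3.3, edgeR 4.0.16 (TMM, filterByExpr with a minimum count of 10 and total of 15, robust quasi-likelihood F test, 2-sided, Benjamini-Hochberg over 21414 genes) gave log2 fold changes. Their SE was the fold change divided by the square root of F. The biological coefficient of variation was 86.1%. A gene was called at an adjusted p below 0.05. The procedure was tested on simulated counts, where DESeq2 made more false calls, as a share, than edgeR or limma voom. CPM and RPKM were computed from these counts with TMM library sizes, distances with a prior count of 2, and intervals in scipy 1.17.1. Total counts per library were 1676229 to 8412887, which puts 1 read at under 1 CPM.

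The gene, the gene lists and the rules were chosen with earlier results of these data known. Named genes are Penk, all opioid precursors and receptors, up to 3 called genes of smallest p per list (or the 2 most abundant), the 10 nearest to Penk, its 3 neighbours on each side in Tumor level, and the nearest gene on each side in the genome. Alternatives were RLE, upper-quartile, total-count and pan-T scaling, DESeq2 1.42.0, limma 3.58.1 voom, other filters, the replicate number as a block and omitted libraries. Same-numbered libraries did not deviate together (r from -0.126 to 0.038 across genes), and nothing in the labels pairs them.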

Additional observations from a re-analysis of the deposited data

Results flagged for a closer look

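In groups of 5 libraries, a library was marked when its gap to the nearest other exceeded 0.71 of the range of the group (Dixon's 95% critical value). For normally distributed values chance gives this in about 1 in 20 groups. Of 110 groups examined for the values reported above, 13 were marked. The values were CPM, ranks and ratios, which need not be normally distributed, so 13 cannot be set against that rate.

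For Penk these were its rank per kb in Tumor, where replicate 4 at 102 stood apart from 32 to 40 (gap 0.886 of the range), and its ratio to Foxp3 in WT, where replicate 2 at 8.02 stood apart (0.837). Among opioid genes, WT replicate 5 was high for Pomc (0.780), WT replicate 3 for Pdyn (0.892), Tumor replicate 1 for Pnoc (0.729) and for Oprd1 (0.823). Ptprn2 (0.752) and Batf (0.859) were high in WT replicate 3, while Sdr16c6 was at 0 there (0.748). Crem was low in Tumor replicate 5 (0.742). Among the genes nearest to Penk, WT replicate 4 was high for Tnfrsf9 (0.808) and Ctla2a (0.765), and WT replicate 2 for Cst7 (0.743).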

How the results depend on the processing

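The direction of Penk held under every alternative run, with a log2 fold change of 7.30 to 8.61 without 1 library, 9.15 with the replicate block, 8.73 by voom, 7.50 by DESeq2 and 4.98 with pan-T scaling. That scaling set its Tumor mean at 497 CPM. As a ratio of reads, the median Tumor ratio was 17.1 to Foxp3 and 0.868 to the CD3 genes. Counts over all genes (293 higher, 47 lower) stayed within 1.5 times under RLE, upper-quartile and total-count scaling and the 10 CPM filter. They were 18 and 19655 with pan-T scaling, 677 and 960 by DESeq2, 455 and 24 by voom, 479 and 341 without a filter, 138 and 3 with the replicate block, 1615 and 378 without WT replicates 1 and 2, 696 and 629 without WT replicates 3 to 5, and 63 to 350 and 2 to 72 without 1 library. Opioid genes called (1 higher, 0 lower) were 0 and 27 with pan-T scaling, 2 and 2 by DESeq2, 2 higher by voom and without either set of WT libraries, 0 higher with the block and 0 to 2 without 1 library. Genes near Penk (0) gave 11 lower with pan-T scaling and 1 higher without WT replicates 1 and 2. Foxp3 ranged from place 6 to 151 without 1 Tumor library, an alternative added after the data were seen. Pan-T scaling reversed Ackr3 (-1.63), Ogfr (-2.56), Pcsk1 (-1.10), Lnpep (-3.01), Npepps (-3.51), Tnfrsf8 (-0.87), Itgae (-0.93), Sdr16c6 (-3.19), Impad1 (-3.18), Furin (-1.35), Cpe (-2.81), Foxp3 (-0.86), Nmb (-0.14), Batf (-0.72), Junb (-1.17) and Lyn (-2.04). Cadps turned to 0.20 by voom, 0.17 without a filter, 1.51 without WT replicates 3 to 5 and -0.55 to 0.33 without 1 library. Npepps became -0.0061 with the 10 CPM filter and -0.43 without WT replicates 3 to 5, where Impad1 became -0.30, and Oprk1 was -1.12 to 0.20 without 1 library. The cause was not tested. Counting error is relatively widest in WT, where 2 Penk reads have an interval of 0.242 to 7.22.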
